A study of Homo sapiens with 6 samples.

Results

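Desmosomes are button-like junctions that fasten the keratin networks of neighbouring epithelial cells to each other. Their adhesive cores are desmosomal cadherins, the desmocollins and desmogleins, whose tails bind the armadillo proteins plakoglobin and plakophilin. Desmoplakin, a plakin, links this plaque to keratin filaments. In breast and other layered epithelia they give the sheet its resistance to mechanical stress, and the mix of cadherin isoforms is known to differ between basal and more differentiated cells. The genes described here were 10, chosen by name from the 27914 genes of the deposited table: the desmocollins DSC2 and DSC3, the desmogleins DSG2 and DSG3, the armadillo genes JUP, PKP1, PKP2 and PKP3, the plakin DSP, and PERP, which encodes a small tetraspan protein of the desmosomal membrane. All 10 had a row in the table.

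RNA was sequenced from MCF10A cells, a non-tumorigenic breast epithelial line of human origin that grows without limit in culture. There were 3 libraries of cells with the genotype α-/-;βin and 3 of SCRin control cells, whose genotype the labels call wild-type, and all 6 came from cells that had received doxycycline for 3 days. The labels do not expand α, β, in or SCR, and the sources used here do not say how the cells were made or whether a line was 1 clone. α and β were read as the PI5P4K enzymes encoded by PIP4K2A and PIP4K2B, since the series title names PI5P4K, and the α-/-;βin cells are called PI5P4K-depleted cells in what follows. The labels number the replicates without saying that they were separate cultures. The p-values therefore reflect the scatter among these libraries, which could be technical alone.

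The libraries carried the change their labels name. PIP4K2A stood at 4.09, 4.16 and 4.35 TPM (a measure of transcript abundance per unit of length) in PI5P4K-depleted cells, against 19.8, 20.2 and 21.7 TPM in control cells. PIP4K2B stood at 8.20, 8.69 and 11.6 TPM in PI5P4K-depleted cells, against 20.8, 23.1 and 21.4 TPM in control cells. All 10 basal breast epithelial markers on the list reached a mean of 1 TPM, and their summed TPM ran from 4066 to 6694 in PI5P4K-depleted libraries and from 4165 to 7591 in control libraries. Of the 10 luminal markers 6 reached 1 TPM (627 to 747 summed TPM in PI5P4K-depleted libraries and 660 to 755 in control libraries, mostly KRT18). Of the 6 tested, 1 was called higher, EPCAM, which encodes an epithelial adhesion molecule, at 48.5, 55.4 and 44.6 TPM in PI5P4K-depleted cells against 9.75, 10.9 and 9.40 TPM in control cells (log2 change 2.19, limma adjusted p = 0.000847). It was 1 of 2 with an unadjusted p under 0.05 in limma, and the median log2 change of the 6 was 0.01. Over all tested genes 0.364% were called higher and 11.9% had an unadjusted p under 0.05 in limma. ESR1 and PGR stayed under 0.2 TPM and ELF5 was listed at 0. Of 12 fibroblast or mesenchymal markers 6 reached 1 TPM (1382 to 1805 summed TPM in PI5P4K-depleted libraries and 1546 to 1935 in control libraries, mostly VIM), and COL3A1 and THY1 were listed at 0. None of the 6 endothelial markers reached a mean of 1 TPM. Of 7 immune markers CD68 and CD14 did, and PTPRC was listed at 0 in all 6 libraries.

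DSC3, the desmocollin of basal epithelial layers, was the 1 desmosome gene past the test, and it rose to 172% of control in PI5P4K-depleted cells. The other 8 measured members did not pass the test, which took no account of the replicate number. With that number as a block, 4 members passed. Of all tested genes, 2.19% passed without the block and 7.28% with it. PERP and PKP3 had higher values in every PI5P4K-depleted library than in any control library. So did DSC3, and so did 5.64% of all tested genes. DSC2 and DSG2 had estimates close to 0. PKP1 was close to 0 TPM in both groups. Expression was compared with limma on log2(TPM + 1) over the 12096 genes that averaged 1 TPM or more, 9 of them desmosome genes, with p-values adjusted over all 12096 and a threshold of 0.05. In these bulk libraries a change in the share of cells that express a gene and a change in RNA per cell cannot be told apart.

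**Figure D1:**
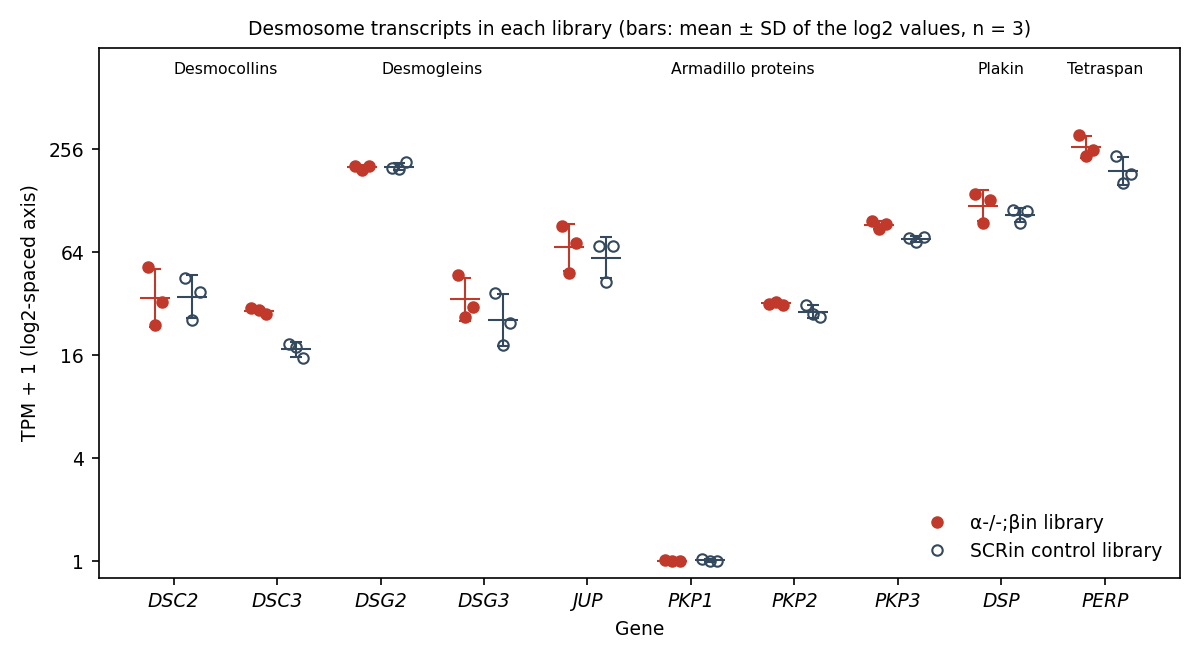
TPM + 1 of each desmosome gene on a log2-spaced axis, with 1 point per library (filled, α-/-;βin; open, SCRin control) and bars for the mean and SD of the log2 values (n = 3 per group). The DSC3 libraries separate by group, at 27.0 to 29.0 TPM in α-/-;βin cells against 14.5 to 17.7 TPM in control cells, while PKP1 lies at the bottom of the axis in both groups.

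The desmocollins DSC2 and DSC3 lie next to each other on chromosome 18, and DSC3 passed the test while DSC2 did not. DSC3 stood at 29.0, 28.5 and 27.0 TPM in PI5P4K-depleted cells and at 17.7, 16.9 and 14.5 TPM in control cells. Every PI5P4K-depleted library lay above every control library, and the lowest of them was above the highest control by more than the whole spread of either group. The means were 28.2 ± 1.08 TPM in PI5P4K-depleted cells and 16.4 ± 1.68 TPM in control cells (SD, n = 3), a log2 change of 0.75 (SE 0.11, 95% interval 0.50 to 1.00, limma adjusted p = 0.0154). The exact two-sided permutation p of the TPM difference was 0.1, and no smaller value is possible with 3 libraries on each side. The estimate stayed between 0.67 and 0.81 over 14 alternative analyses. The call did not: the limma adjusted p was 0.0752, 0.0661 and 0.0708 without PI5P4K-depleted replicate 1, 2 and 3 and 0.0652 without control replicate 3 (0.00507 to 0.0752 over all alternatives). Of the 10 markers of basal breast epithelium tested beside DSC3, 7 had a log2 change above 0 (median 0.50), 6 had an unadjusted p under 0.05 in limma and 5 had groups that did not overlap, of which KRT5, TP63, ITGA6 and CDH3 were higher in PI5P4K-depleted cells. Over all tested genes 46.7% had a log2 change above 0, 11.9% had an unadjusted p under 0.05 in limma and 17.1% had no overlap. Called in either direction were 2.19% of them. KRT5, TP63 and CDH3 are also on the lists of keratins, transcription factors and adherens junction genes. After adjustment 0 of the 10 basal markers were called higher and 1 lower, EGFR, the epidermal growth factor receptor gene on chromosome 7. EGFR stood at 94.4, 98.2 and 95.3 TPM in PI5P4K-depleted cells against 192, 212 and 214 TPM in control cells (log2 change -1.09, limma adjusted p = 0.00308). The part of these markers in the DSC3 result was not tested.

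DSC2, the desmocollin found most widely across epithelia and in heart muscle, stood at 51.4, 22.9 and 31.5 TPM in PI5P4K-depleted cells and at 44.3, 24.8 and 36.2 TPM in control cells. The groups overlapped throughout, and the replicates of a group lay further apart than the groups did. Its log2 change was -0.03 (95% interval -0.78 to 0.72, limma adjusted p = 0.988), an interval whose upper end lay just under the change measured for DSC3. The sequences before the starts of DSC3, the member called, of DSC2, its neighbour that was not called, and of PERP are shown. PERP is the other member with separate groups that has a promoter in the table. They come from the RefSeq table of GRCh38.p14, a later build than the authors' hg19. Each holds the 250 bases before the gene's start, 5′ to 3′ on the gene's strand, and capitals mark the motif matches given after the sequences.
DSC3, chr18:31042743-31042992, minus strand: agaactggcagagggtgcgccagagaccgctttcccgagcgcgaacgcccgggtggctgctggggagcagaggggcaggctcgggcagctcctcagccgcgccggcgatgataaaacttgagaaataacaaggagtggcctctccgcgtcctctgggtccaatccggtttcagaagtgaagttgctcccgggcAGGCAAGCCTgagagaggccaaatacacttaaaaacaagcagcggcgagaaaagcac
DSC2, chr18:31102422-31102671, minus strand: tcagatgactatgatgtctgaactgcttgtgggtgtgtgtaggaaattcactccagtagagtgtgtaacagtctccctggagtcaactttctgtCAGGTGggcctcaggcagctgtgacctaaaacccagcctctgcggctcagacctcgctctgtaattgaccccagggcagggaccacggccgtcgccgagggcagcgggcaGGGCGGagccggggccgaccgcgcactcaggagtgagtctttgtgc
PERP, chr6:138107420-138107669, minus strand: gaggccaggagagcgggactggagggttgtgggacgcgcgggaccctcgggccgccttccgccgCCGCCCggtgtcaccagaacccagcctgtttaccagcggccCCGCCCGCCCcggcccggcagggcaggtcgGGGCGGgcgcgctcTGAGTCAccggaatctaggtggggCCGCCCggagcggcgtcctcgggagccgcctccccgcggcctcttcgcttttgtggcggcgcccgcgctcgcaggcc

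The capitals in DSC3 are a match to a p53 family half-site, which is only a part of the element bound by p53 and p63. Those in DSC2 are an E-box (CAGGTG) and then an Sp1 site (GGGCGG). Those in PERP are 5 Sp1 sites on either strand, of which a neighbouring pair overlaps, and an AP-1 site (TGAGTCA). The table held 8 of the 10 members, all but PKP2 and PKP3, among 27305 promoters. On both strands of the 250 bases, the half-site occurred in 2 of the 8 members, DSC3 (57 to 48 bases before the start) and DSG3 (218 to 209 bases before it), and in 5.53% of all promoters. The E-box occurred in DSC2, DSG2 and DSP (17.5% of all promoters), the Sp1 site in 6 of the 8 members (42.3% of all promoters) and an AP-1 site (TGANTCA) in PERP (6.6% of all promoters). The TEAD motif (GGAATG), which the Hippo pathway's DNA-binding partners recognise, was found in 0 of the 8 and in 11.9% of all promoters. Neither the grainyhead motif (AACCNGTT, 1.48% of all promoters) nor a TATA box (TATAAA, 11.1%) was found in any of the 8. GC content was 60.4% in DSC3, 59.6% in DSC2 and 77.2% in PERP, against a median of 58% over all promoters. These matches are a description of the letters in this window.

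The desmogleins were represented by 2 genes, and neither passed the test. DSG2, the desmoglein of simple and proliferating epithelia, stood at 202, 193 and 204 TPM in PI5P4K-depleted cells and at 196, 195 and 213 TPM in control cells. The replicates lay close together, with the highest library at 1.06 times the lowest in PI5P4K-depleted cells and 1.09 times in control cells. Its log2 change was -0.02 with a 95% interval of -0.20 to 0.17 (limma adjusted p = 0.975), so changes as large as that of DSC3 lay outside the interval. DSG3, the basal desmoglein and the antigen of pemphigus vulgaris, stood at 46.1, 25.8 and 29.8 TPM in PI5P4K-depleted cells and at 36.0, 17.4 and 23.6 TPM in control cells. The groups overlapped, and replicate 1 was highest and replicate 2 lowest in both. The log2 change of DSG3 was 0.41 (95% interval -0.30 to 1.12, limma adjusted p = 0.691).

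The desmosomal cadherin genes form 1 cluster on chromosome 18, in the RefSeq order DSC3, DSC2, DSC1, DSG1, DSG4, DSG3 and DSG2. DSC1, DSG1 and DSG4, the cadherins of differentiated epidermis and hair, lie in the middle and were listed at 0 in all 6 libraries. CDH2, the N-cadherin gene next to DSC3, had a log2 change of -0.41 (limma adjusted p = 0.641), with 11.5, 8.62 and 16.0 TPM in PI5P4K-depleted cells and 17.0, 11.5 and 20.5 TPM in control cells. At the other end TTR, which encodes transthyretin, averaged under 1 TPM and B4GALT6, a glycosyltransferase gene, had a log2 change of 0.10 (limma adjusted p = 0.899). Within the cluster and its nearest neighbours, DSC3 was therefore the gene past the threshold. The antisense genes DSCAS and DSG2-AS1, which overlap DSC2 and DSG2, were listed at 0 in every library. The sources used here do not say whether the counting used strand.

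**Figure D2:**
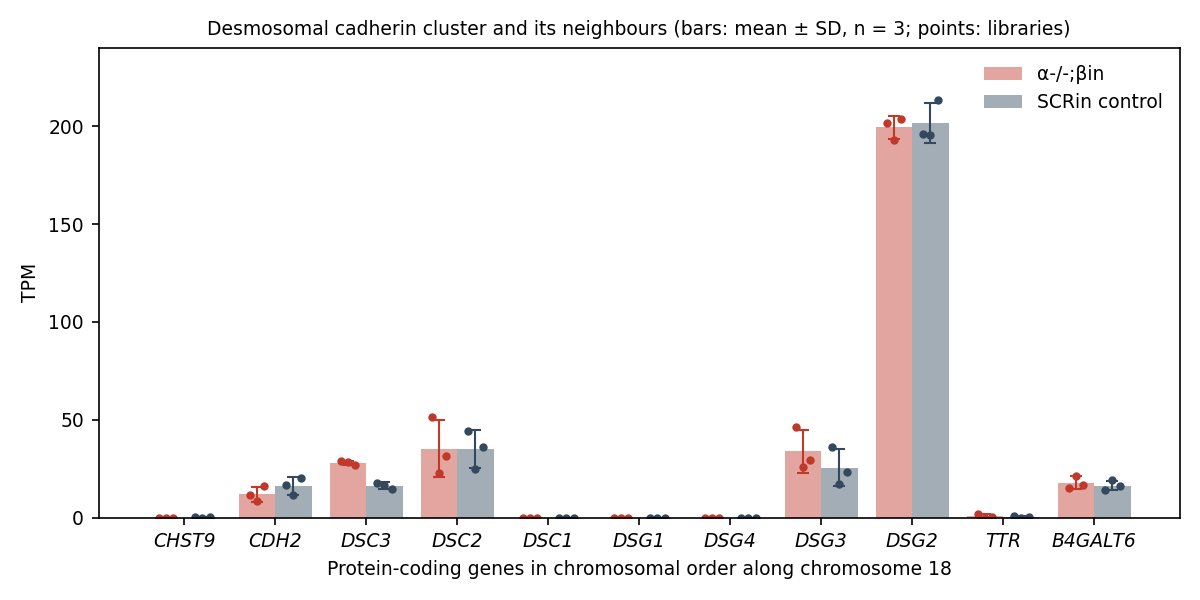
TPM of the desmosomal cadherin cluster and the 2 protein-coding genes on each side, in chromosomal order (bars, mean ± SD, n = 3; points, libraries; α-/-;βin left of SCRin control). DSG2 reaches about 200 TPM in both groups, DSC1, DSG1 and DSG4 are at 0, and DSC3 is the gene whose points separate.

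The makeup of the cadherin transcripts was examined after the gene values had been seen. DSG2 supplied the larger part, with 61.4% to 71.4% of the summed TPM of DSC2, DSC3, DSG2 and DSG3 in PI5P4K-depleted libraries and 66.7% to 76.8% in control libraries. DSC3 supplied 8.84%, 10.6% and 9.23% in PI5P4K-depleted libraries and 6.02%, 6.66% and 5.03% in control libraries. The DSC3 shares did not overlap between the groups (exact permutation p = 0.1, the smallest possible), while those of DSC2, DSG2 and DSG3 did. The summed level of the 4 cadherins ran from 270.0 to 328 TPM in PI5P4K-depleted libraries and from 254 to 294 TPM in control libraries (exact permutation p = 0.5).

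**Figure D3:**
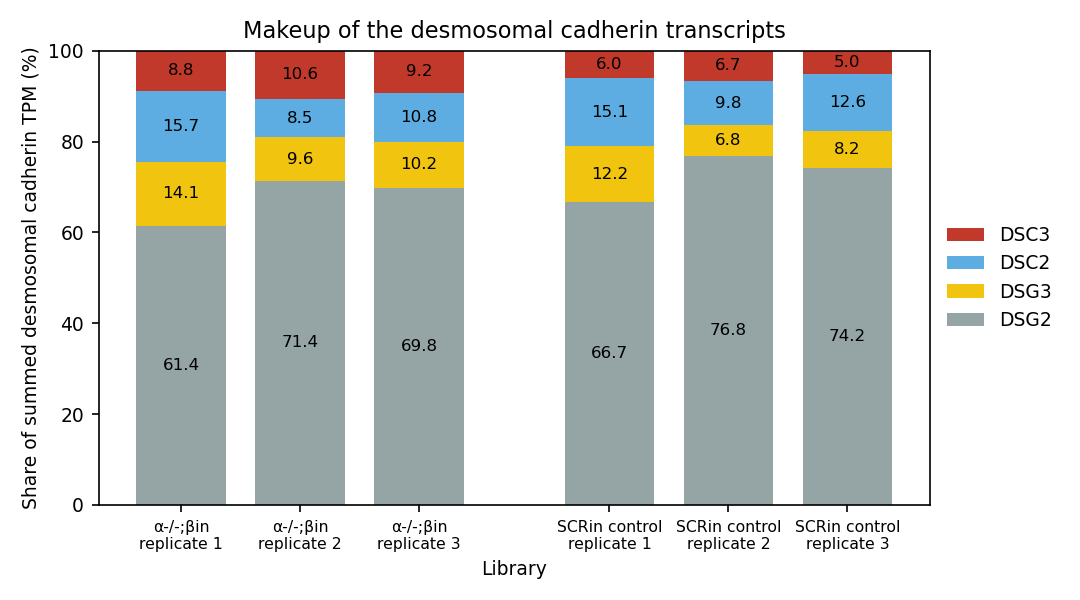
Share of each desmosomal cadherin in the summed TPM of DSC2, DSC3, DSG2 and DSG3, in percent, with 1 stacked bar per library (α-/-;βin left, SCRin control right). The DSC3 segment spans 8.84% to 10.6% in α-/-;βin libraries against 5.03% to 6.66% in control libraries, and the DSG2 segment overlaps between the groups.

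Whether DSC3 moved by another amount than the other members was compared within each library, as the log2 ratio of DSC3 to each of the other 8 measured genes, along with DSG3 to DSG2. These 9 pairs were also chosen after the values had been seen. The ratio to DSG2 was 0.144, 0.148 and 0.132 in PI5P4K-depleted libraries and 0.0902, 0.0867 and 0.0678 in control libraries, and it did not overlap (log2 difference 0.77). The ratios of DSC3 to DSP, PKP2 and PKP3 did not overlap either, with log2 differences of 0.58, 0.59 and 0.47. Those to DSC2, DSG3, JUP and PERP did (0.78, 0.35, 0.55 and 0.28), as did the ratio of DSG3 to DSG2 (0.42). For the 4 ratios without overlap the exact permutation p was 0.1, the smallest possible, and 0.225 after Benjamini-Hochberg adjustment over the 9 pairs. A change of DSC3 that differs from those of the other members was thus not established by this test, which cannot pass 0.05 at this size.

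The armadillo genes were measured at 3 of 4 members. PKP3, the plakophilin present in nearly all desmosomes of layered epithelia, stood at 95.9, 86.3 and 92.7 TPM in PI5P4K-depleted cells and at 76.7, 71.9 and 77.4 TPM in control cells. The groups did not overlap, with a log2 change of 0.28 (SE 0.08, 95% interval 0.08 to 0.47, limma adjusted p = 0.225). PKP2, the plakophilin of simple epithelia and heart, stood at 31.0, 31.9 and 30.4 TPM in PI5P4K-depleted cells and at 30.6, 26.7 and 25.8 TPM in control cells. Control replicate 1 lay within the range of the PI5P4K-depleted libraries (log2 change 0.17, 95% interval -0.07 to 0.40, limma adjusted p = 0.604). PKP1, the plakophilin of suprabasal epidermis, measured 0.0237 TPM in PI5P4K-depleted replicate 1 and 0.0355 TPM in control replicate 1 and was listed at 0 in the other libraries. It fell under the filter and was not tested.

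JUP encodes plakoglobin, the armadillo protein shared by desmosomes and adherens junctions. It stood at 89.6, 47.2 and 71.2 TPM in PI5P4K-depleted cells and at 68.1, 42.0 and 68.6 TPM in control cells. Replicate 2 was the lowest library in both groups, and the groups overlapped (log2 change 0.20, 95% interval -0.45 to 0.86, limma adjusted p = 0.861). DSP, which encodes desmoplakin, stood at 139, 93.5 and 127 TPM in PI5P4K-depleted cells and at 111, 93.6 and 109.6 TPM in control cells. Replicate 2 held nearly the same value in both groups, and the log2 change was 0.18 (95% interval -0.20 to 0.55, limma adjusted p = 0.758).

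PERP, a target of p53 and p63 that is needed for desmosome assembly in mouse skin, was the most abundant member by its mean over the 6 libraries. It stood at 309, 233 and 252 TPM in PI5P4K-depleted cells and at 231, 161 and 183 TPM in control cells. The groups did not overlap, but only just, since PI5P4K-depleted replicate 2 and control replicate 1 were nearly equal. The means were 265 ± 39.7 TPM in PI5P4K-depleted cells and 192 ± 35.9 TPM in control cells (SD, n = 3), a log2 change of 0.47 (SE 0.16, 95% interval 0.08 to 0.85, limma adjusted p = 0.311). In PI5P4K-depleted cells each PERP value exceeded each DSG2 value, while in control cells the ranges of these 2 most abundant members overlapped. By their means DSP came next in both groups, then PKP3 and JUP. Neighbours in this order overlapped in PI5P4K-depleted cells, DSP with PKP3 and PKP3 with JUP, and did not overlap in control cells. DSC2, whose highest values reached the range of JUP in both groups, and DSG3, PKP2 and DSC3 made up the lower end, between 22.9 and 51.4 TPM in PI5P4K-depleted libraries and between 14.5 and 44.3 TPM in control libraries.

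**Figure D4:**
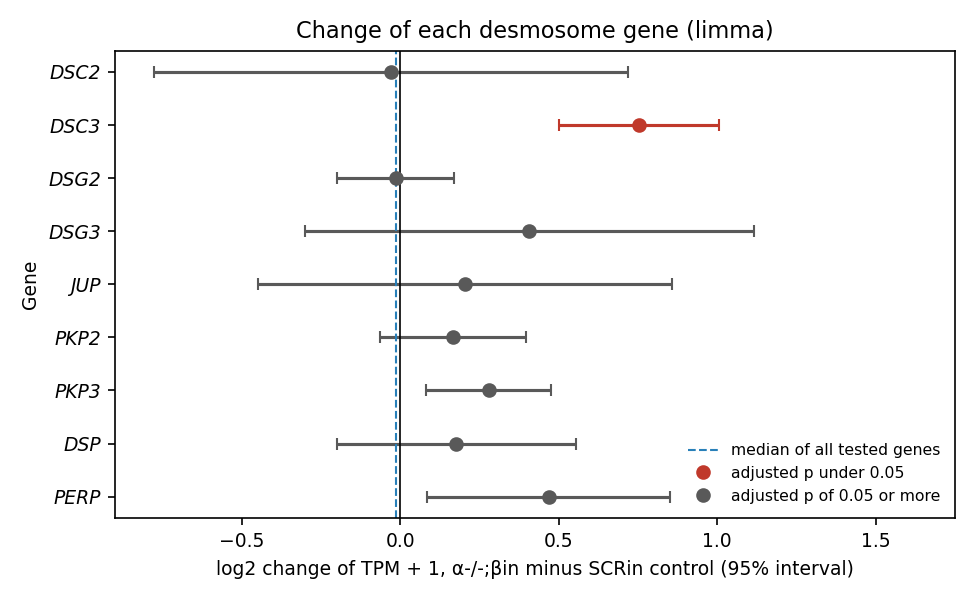
Log2 change of TPM + 1, α-/-;βin minus SCRin control, for the 9 tested desmosome genes, with 95% intervals from limma; the dashed line is the median of all 12096 tested genes. DSC3 (0.75) is past the threshold, the intervals of PERP and PKP3 lie above 0 without passing it after adjustment, and DSC2 has the widest interval.

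As a list, the desmosome genes had 1 of 9 tested members called, DSC3, and it was higher. Over all tested genes 2.19% were called in either direction and 0.364% were called higher. Before adjustment, 3 of the 9 had p under 0.05 (DSC3, PERP and PKP3), as did 11.9% of all tested genes. The same 3 had groups that did not overlap, all of them higher, where 17.1% of all tested genes had no overlap and 5.64% were higher without overlap. The median log2 change was 0.20 over the 9 members and -0.01 over all tested genes, and 7 of the 9 were above 0 against 46.7% of all. The summed level of the 10 members was 762 to 993 TPM in PI5P4K-depleted libraries and 650 to 812 TPM in control libraries, which overlapped (exact permutation p = 0.2).

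Most members had their lowest value in the same numbered library of each group. Of the 9 measured genes, 7 had their lowest value in replicate 2 in the PI5P4K-depleted group, and the same count held in the control group: in both, the 7 were DSC2, DSG2, DSG3, DSP, PKP3, JUP and PERP. Over all tested genes 29.8% were lowest in replicate 2 of the PI5P4K-depleted group, 25.4% in replicate 2 of the control group and 16.4% in both. DSC3 and PKP2 were lowest in replicate 3 of both groups. Replicate 1 was the highest PI5P4K-depleted library for 7 of the 9 genes and the highest control library for 6 of the 9. It was the lowest library of either group for 0 of the 9. Over all tested genes replicate 1 was lowest for 43.8% in the PI5P4K-depleted group and for 51.3% in the control group. The share of all genes highest in replicate 1 was not counted. The spread was widest for DSC2, DSG3 and JUP, whose highest library was 2.24, 1.79 and 1.90 times the lowest in PI5P4K-depleted cells and 1.79, 2.07 and 1.63 times in control cells. For DSC3, DSG2, PKP2 and PKP3 the same ratio was 1.05 to 1.11 in PI5P4K-depleted cells and 1.08 to 1.22 in control cells. CDH1, which encodes E-cadherin, was also lowest in replicate 2, with 35.8, 18.6 and 28.7 TPM in PI5P4K-depleted cells and 27.6, 16.4 and 29.2 TPM in control cells. The basal keratin KRT17 was too, at 675, 199 and 594 TPM in PI5P4K-depleted cells and 420, 139 and 693 TPM in control cells. KRT5 was not, since its lowest library was replicate 1 in both groups. It stood at 841, 1053 and 988 TPM in PI5P4K-depleted cells and at 576, 590.3 and 837 TPM in control cells.

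**Figure D5:**
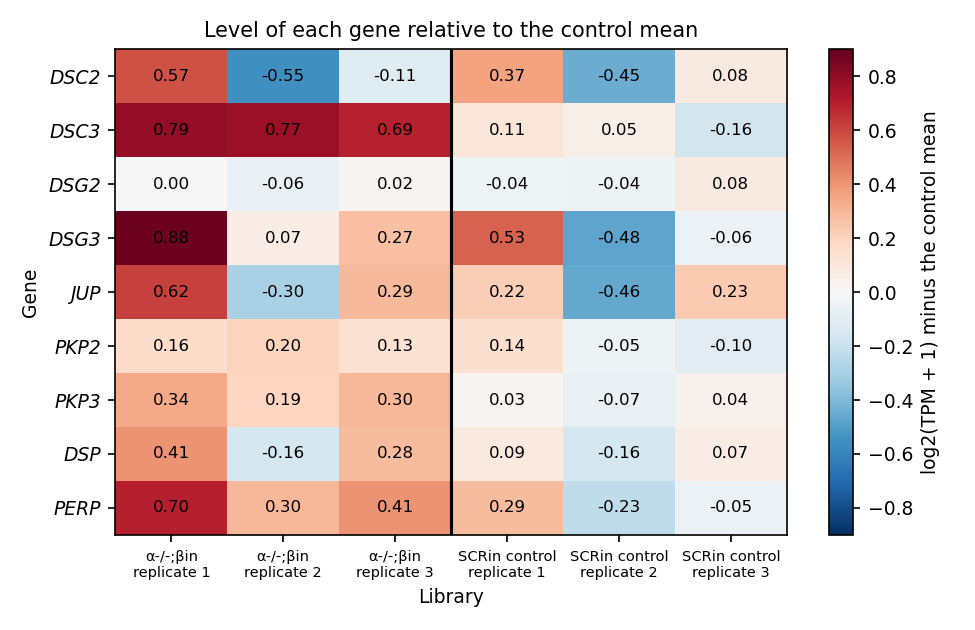
Log2(TPM + 1) of each desmosome gene minus its mean in the controls, with 1 column per library (α-/-;βin left of the line, SCRin control right) and the value in each cell. DSC3 is at 0.69 to 0.79 in all 3 α-/-;βin libraries, whereas DSC2, DSG3 and JUP differ more between replicates than between groups.

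No other gene of the desmosome or of cornified junctions passed the test. Of 8 on the list, 4 were tested and 0 passed, with 0 at an unadjusted p under 0.05 in limma (median log2 change 0.08). PNN, encoding pinin, was the most abundant, at 81.3 ± 12.3 TPM in PI5P4K-depleted cells and 83.3 ± 15.6 TPM in control cells. PKP4, a plakophilin relative of cell contacts, averaged 35.4 ± 6.02 TPM in PI5P4K-depleted cells and 35.5 ± 5.98 TPM in control cells. The plakins EVPL and PPL, encoding envoplakin and periplakin, averaged 9.09 and 2.89 TPM in PI5P4K-depleted cells and 7.95 and 1.61 TPM in control cells. EVPL was higher in every PI5P4K-depleted library than in any control library (log2 change 0.17, limma adjusted p = 0.664). It was the 1 gene of the 4 tested without overlap, where 17.1% of all tested genes had none. CDSN, encoding corneodesmosin, stayed under 0.4 TPM.

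Of 13 keratins, the filaments that desmosomes anchor, 11 were tested and 0 passed, with 1 at an unadjusted p under 0.05 in limma, KRT5 (median log2 change 0.33). Over all tested genes 11.9% had an unadjusted p under 0.05 in limma. KRT7 was the most abundant, at 3566 ± 685 TPM in PI5P4K-depleted cells and 3881 ± 597 TPM in control cells. KRT5, the partner of KRT14 in basal cells, stood at 841, 1053 and 988 TPM in PI5P4K-depleted cells and at 576, 590.3 and 837 TPM in control cells (log2 change 0.54, limma adjusted p = 0.240). KRT14 stood at 59.4, 27.7 and 108 TPM in PI5P4K-depleted cells and at 9.50, 9.03 and 67.9 TPM in control cells, and overlapped (log2 change 1.57, 95% interval -0.36 to 3.50, limma adjusted p = 0.535).

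Of the 13 genes of classical adherens junctions in the table, 1 rose, 0 fell and 12 did not pass (median log2 change -0.05). Of the 13, 4 had an unadjusted p under 0.05 in limma and 4 had groups without overlap. The shares over all tested genes were 11.9% and 17.1%, with 2.19% called. NECTIN1, an immunoglobulin-like adhesion molecule, rose: it stood at 58.1, 62.0 and 55.4 TPM in PI5P4K-depleted cells and at 34.4, 30.8 and 35.2 TPM in control cells (log2 change 0.79, SE 0.09, limma adjusted p = 0.00815). CDH3, encoding the basal P-cadherin, had non-overlapping groups without passing, at 97.2, 64.7 and 87.0 TPM in PI5P4K-depleted cells and 62.6, 43.9 and 61.5 TPM in control cells (log2 change 0.56, limma adjusted p = 0.314). VCL, encoding the actin-linking vinculin, and NECTIN2 had no overlap in the other direction, with log2 changes of -0.44 and -0.48 (limma adjusted p = 0.219 and 0.108). CTNNA1, encoding α-catenin and the most abundant of the list, averaged 338 ± 38.6 TPM in PI5P4K-depleted cells and 360.4 ± 27.4 TPM in control cells.

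Of 13 epithelial transcription factors 6 were tested and 0 passed, with 1 at an unadjusted p under 0.05 in limma, TP63 (median log2 change 0.20). TP63, which encodes the basal factor p63, stood at 29.6, 26.0 and 25.1 TPM in PI5P4K-depleted cells and at 18.9, 13.1 and 16.2 TPM in control cells (log2 change 0.72, SE 0.15, limma adjusted p = 0.0664). KLF5 was the most abundant, at 123 ± 15.7 TPM in PI5P4K-depleted cells and 127 ± 16.8 TPM in control cells, and GRHL2 and ZNF750 were listed at 0 in every library. Of 17 factors of desmosome assembly, traffic and shedding, 1 fell, 0 rose and 16 did not pass (median log2 change 0.06). Of the 17, 5 had an unadjusted p under 0.05 in limma and 6 had groups without overlap. Over all tested genes these shares were 11.9% and 17.1%, and 2.19% were called. RAC1, a GTPase that organises cortical actin, lies on chromosome 7 and fell to 290.3, 271 and 285 TPM in PI5P4K-depleted cells, against 586, 557 and 603 TPM in control cells (log2 change -1.04, SE 0.08, limma adjusted p = 0.00308). ANXA2, the most abundant, averaged 3940 ± 635 TPM in PI5P4K-depleted cells and 3745 ± 613 TPM in control cells. Over all tested genes 265 were called, and 48 when chromosomes 3 and 7 were left out. Whether the falls of RAC1 and of EGFR were particular to these genes was not tested.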

How the data were processed

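The authors deposited 1 table of TPM covering 27914 gene symbols in 6 sample columns that each summed to 1000000. The genome build was hg19 and DESeq2 was among the tools, per the submitters' processing notes. The sources used here do not name the aligner, the quantifier or the gene models. Libraries were made from 250 ng of RNA with Illumina TruSeq reagents, per the labels' protocols. TPM keeps no depth, so the number of reads per library is unknown. Columns headed as control matched the control samples by name and number, and those headed as experiment were assigned to the α-/-;βin samples as the only other group.

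Tests used log2(TPM + 1), a scale on which changes of low genes are understated. Genes that averaged 1 TPM or more were fitted with limma 3.58.1 in R 4.3.3 (empirical Bayes with a mean-variance trend, two-sided), with Benjamini-Hochberg adjustment of p. Single values were compared by exact two-sided permutation tests (scipy 1.17.1). The members, the 11 gene lists, the tests and the alternatives were chosen with earlier results of these data known. All 10 members are named; of each further list, members past the threshold, the most abundant member and those described by their role are named, apart from a gene that is not reported here. The other comparisons of cadherin shares and ratios were added after the values had been seen. The 14 alternatives changed the pseudocount, the filter, the scaling, the variance trend, the genes or the libraries. Chromosomes and gene order came from RefSeq GRCh38.p14, which is not the authors' build.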

Additional observations from a re-analysis of the deposited data

How the results depend on the processing

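Across 14 alternatives the log2 changes of DSC3, DSG3, DSP, PKP2, PKP3 and PERP stayed above 0. With single libraries left out DSG3 ran from 0.17 to 0.67 and DSP from 0.06 to 0.34. DSC2 had a log2 change of 0.000208 and DSG2 of 0.0170 with median-of-ratios rescaling, and with single libraries left out DSC2 ran from -0.33 to 0.23, DSG2 from -0.0373 to 0.0263 and JUP from -0.0264 to 0.45; the cause was not tested. Leaving out 1 library gave 0 to 1 desmosome genes called, 106 to 219 genes in all, 0 to 1 epithelial transcription factors, 1 to 2 basal markers and 1 to 2 luminal markers. TP63 was the transcription factor called without control replicate 1 (limma adjusted p = 0.0495). Without chromosomes 3 and 7, 48 genes passed, against 265 with them. Among the 48 were 0 assembly factors and 0 basal markers, since RAC1 and EGFR lie on chromosome 7.

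With the replicate number as a block, 881 genes passed (7.28% of those tested), among them 4 desmosome genes: DSC3, DSG3, PERP and PKP3 (limma adjusted p = 0.00507, 0.0360, 0.00522 and 0.0327). So did 5 adherens junction genes, 1 transcription factor, 5 basal, 2 mesenchymal and 1 immune markers. The labels only number the replicates. Deviations from the group means correlated across genes at 0.25 for number 1, 0.27 for number 2 and -0.02 for number 3. PI5P4K-depleted replicate 1 with control replicate 2 gave -0.29, and PI5P4K-depleted replicate 2 with control replicate 1 gave -0.24. PI5P4K-depleted replicate 3 was near 0 with every control library (-0.02 to 0.01). Whether equal numbers mark pairs was not settled by these values. The main fit used no block, and the counts called depend on that choice. The median log2 change of the members ran from 0.14 to 0.34, and the DSC3 difference in mean TPM from 10.9 to 12.5, with single libraries left out. Read depth is unknown, and 3 libraries a group limit the precision.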

Other observations

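The genes whose levels followed DSC3 most closely over the 6 samples, among 9711 genes that averaged 5 TPM or more, were STX6, which encodes a syntaxin of the trans-Golgi network (Pearson's r = 0.997), BCL7A, a chromatin remodelling subunit gene (0.995), and LRIF1 (0.989). STX6 averaged 38.9 ± 1.31 TPM in PI5P4K-depleted cells and 26.9 ± 1.29 TPM in control cells (SD, n = 3). BCL7A averaged 18.1 ± 0.992 TPM in PI5P4K-depleted cells and 9.65 ± 1.27 TPM in control cells. LRIF1 averaged 17.7 ± 1.19 TPM in PI5P4K-depleted cells and 10.3 ± 0.590 TPM in control cells. For PERP the closest were ITGA3, which encodes the integrin α3 subunit (0.990), DOCK6, a gene for a guanine nucleotide exchange factor (0.982), and OPLAH, which encodes 5-oxoprolinase (0.980). ITGA3 averaged 372 ± 45.3 TPM in PI5P4K-depleted cells and 285 ± 35.1 TPM in control cells. Correlations above 0.95 were common, with 60 genes for DSC3 and 37 for PERP, and the 6 points fall into the 2 groups, so they are given as a description.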
